A study of Brassica napus with 6 samples.

Results

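The 100 genes described here stood on opposite sides of control at the last days of sampling: when drought seeds were above control seeds at day 40 after flowering they were below them at day 50, or the reverse. They were chosen by measured values, from seed RNA sequencing of oilseed rape (Brassica napus), an allotetraploid with an A and a C subgenome. The samples were drought seeds of days 30, 40 and 50, from plants stressed from the start of flowering, and control seeds of the same days, with 1 library for each treatment and day. Plants of both treatments grew under a rain shelter, and 6 lines are mentioned in the labels without saying which line or lines gave each library, so that line and drought cannot be told apart. Every value below therefore describes single libraries, has no replicate check and carries no p-value.

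The genes were selected on 3 drought changes, 1 for each day. Counts were divided by a size factor per library, 10 was added, and the log2 of this value (here the log2 level) was compared within each day as drought minus control. Of 72611 genes in the table, 26782 were eligible, with a Bna ID and a mean CPM (count scaled to a common library total) of 5 to 500 over the 6 libraries. Among these, 9486 genes, or 35.4%, had changes of opposite sign at days 40 and 50 and a change under 0.5 at day 30. The 100 with the largest value for the smaller of the changes of days 40 and 50 were taken. They divided into 50 genes higher in drought at day 40 and lower at day 50, and 50 genes lower at day 40 and higher at day 50. The last gene inside the list had a smaller change of 0.886 and the first outside it one of 0.879, so the list ends within a continuous range.

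During the sampled period an oilseed rape embryo passes from growth to the filling of its cells with oil and storage protein, and then to drying. Transcripts of filling and of late maturation appear in turn, and those of the young seed coat, endosperm and growing embryo decline. A comparison of treated and untreated seeds on a fixed day therefore mixes any response to treatment with any difference in how far the seeds have developed. No gene names accompany the IDs in the files. Ignoring case, 2926 of the 72611 IDs matched an entry of the RefSeq table of the Da-Ae assembly, and 0 of the 100 genes were among them, so no gene name, role or sequence is given. The 2 genes with the largest smaller change in each direction are named, and the others are given by counts, medians and ranges.

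Depth ranged from 10314859 to 16177156 reads per drought library and from 12209126 to 14918127 per control library. The drought library of day 40, with the fewest reads, differed from the others in its scaling, which touches these genes. Its size factor was 0.592, against 0.953 to 1.56 in the other libraries. Its total after scaling was the highest, at 17415744, against 12488006 in control of the same day. The scaled totals were 15772327 and 15324840 in drought and control of day 50, and 10386892 and 10606981 in those of day 30. Across the eligible genes its log2 change from control also went with gene length, with a Pearson correlation of -0.374 at day 40, 0.190 at day 30 and -0.00633 at day 50. These correlations are across genes of the same pair of libraries and are descriptions.

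The gene with the largest smaller change was BnaA06g30550D, of the group higher in drought at day 40. At day 30 it had 115 reads in drought seeds and 78 in control seeds. At day 40 it had 194 reads in drought seeds and 5 in control seeds, and at day 50 it had 1 read in drought seeds and 62 in control seeds. The drought library of day 40 was thus the highest of the 6, and both control of day 40 and drought of day 50 were near 0. The ratio of scaled counts, drought over control, was 72.9 at day 40, with a 95% exact counting interval of 30.7 to 227. At day 50 that ratio was 0.0165, with an interval of 0.000411 to 0.0953. The log2 changes used for the selection were 0.11, 4.54 and -2.74 at days 30, 40 and 50. Counting intervals leave out differences between plants and lines, here and below.

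BnaC08g36790D, the second gene of this group, showed a less abrupt course. It had 359, 276 and 24 reads in drought seeds at days 30, 40 and 50, and 258, 138 and 84 in control seeds. After scaling these were 231, 466 and 25.2 in drought seeds and 224, 124 and 86.3 in control seeds. Control seeds were thus lower at each later day, while drought seeds were highest at day 40 and lowest at day 50. Drought over control came to 3.76 at day 40 (counting interval 3.05 to 4.64) and to 0.292 at day 50 (0.177 to 0.464).

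In the other direction, BnaA07g27230D had 1529, 42 and 469 reads in drought seeds at days 30, 40 and 50, and 970, 305 and 41 in control seeds. Scaled, these were 982, 70.9 and 492 in drought seeds and 843, 274 and 42.1 in control seeds. Control seeds were lower at each later day, whereas drought seeds were lowest at day 40 and at day 50 were above both later control libraries. Drought over control was 0.259 at day 40 (0.183 to 0.358) and 11.7 at day 50 (8.49 to 16.5).

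BnaC06g30160D had a course of the same form, with 950, 28 and 567 reads in drought seeds and 531, 159 and 64 in control seeds. Scaled, drought seeds had 609.97, 47.3 and 595 and control seeds 461, 143 and 65.7, so that the drought libraries of days 30 and 50 differed little while that of day 40 was the lowest of the 6. Its ratio of drought over control was 0.331 at day 40 (0.213 to 0.497) and 9.05 at day 50 (6.98 to 11.9). BnaA07g27230D and BnaC06g30160D have lengths of 2610 and 2607 bases in the authors' table. The files do not say which A and C genes are copies of each other, and reads shared between near-identical copies would make the value of either uncertain.

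The authors' own length-scaled values, read as FPKM, gave these 4 genes the same order of drought and control at days 40 and 50. BnaA06g30550D stood at 17.3 FPKM in drought seeds and 0.255 in control seeds at day 40, and at 0.0363 and 3.45 at day 50. BnaC08g36790D stood at 47.4 FPKM in drought seeds and 13.6 in control seeds at day 40, and at 2.76 and 9.49 at day 50. BnaA07g27230D had 2.08 FPKM in drought seeds and 8.81 in control seeds at day 40, and 15.3 and 1.31 at day 50. BnaC06g30160D had 1.41 FPKM in drought seeds and 4.65 in control seeds at day 40, and 18.7 and 2.08 at day 50. These come from the same libraries and are no second measurement.

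**Figure D1:**
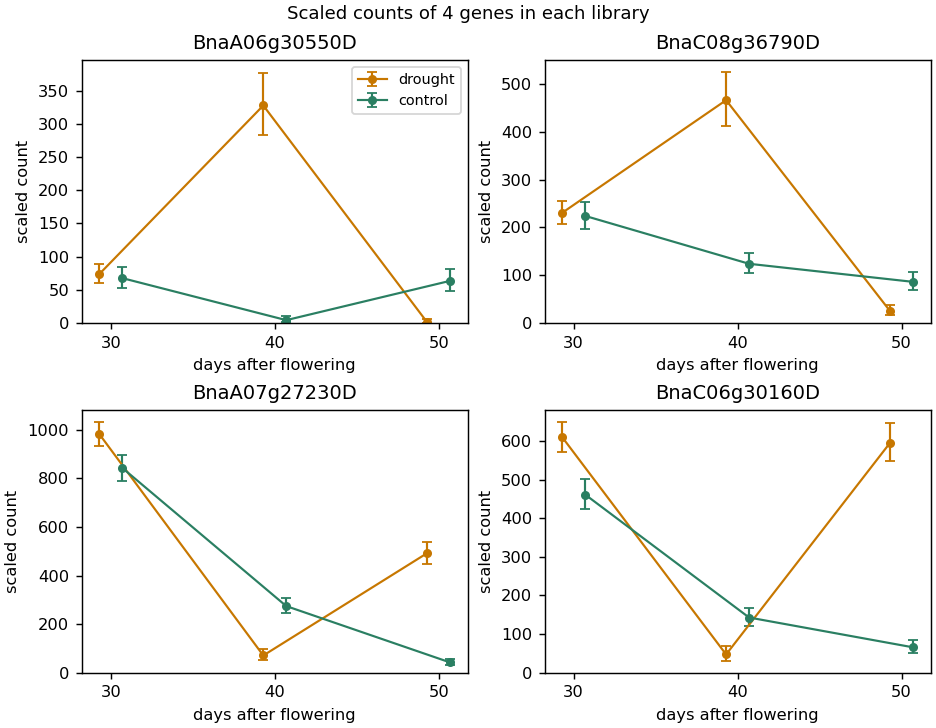
Scaled counts (vertical axis, from 0) of the 4 named genes by days after flowering, in drought and control seeds, with 1 library per point and bars for the 95% Poisson counting interval. The drought and control lines cross between days 40 and 50 in each panel, as the selection requires, and BnaA06g30550D stands at 1.05 in drought seeds of day 50, against 63.7 in control seeds.

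With the size factors used, the median sizes of the changes at day 40 were similar in both directions. With counts divided by library totals they were not, at 0.69 for the genes higher at day 40 and -1.46 for those lower. The values that follow are with size factors. In the group higher at day 40, the log2 change of day 40 ran from 0.89 to 4.54 with a median of 1.16, and that of day 50 from -2.74 to -0.92 with a median of -1.14. In the group lower at day 40, the change of day 40 ran from -1.81 to -0.89 with a median of -1.11, and that of day 50 from 0.89 to 3.41 with a median of 1.35. The change of day 40 exceeded that of day 50 in size for 22 of 50 genes higher at day 40 and for 13 of 50 genes lower at day 40, against 42.7% of eligible genes. At day 30 the medians were -0.00188 and 0.11, within the limit that the selection set. These values chose the genes and are given as a description.

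Here and below, 2-fold means a change of 1 in the log2 level, which has 10 added to each scaled count. The plain ratios given above lack this addition, and more genes of low count would pass 2-fold by them. A gene lower at day 40, for example, had a plain ratio of 10.2 at day 50 but a change of 0.89. A change of at least 2-fold on both days was reached by 29 genes in each direction, or 0.108% of the eligible genes higher at day 40 and lower at day 50 and 0.108% the reverse. At day 40 taken alone, 34 of the 50 genes higher in drought were at least 2-fold higher, against a background of 4.72% of eligible genes, and 34 of the 50 lower genes were at least 2-fold lower, against 4.22%. At day 50, 41 of the first 50 were at least 2-fold lower, against 10.1%, and 44 of the other 50 at least 2-fold higher, against 7.28%. Since the selection used these changes, nothing is read from the gap between these counts and the background.

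**Figure D2:**
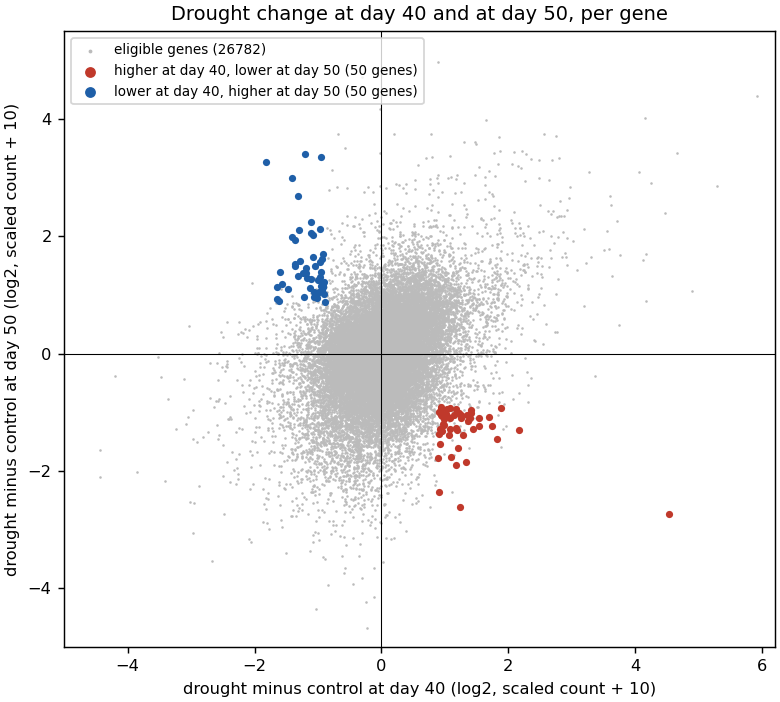
Log2 change, drought minus control, at day 40 (horizontal axis) and day 50 (vertical axis) for the 26782 eligible genes in grey and the 100 chosen genes in color. The 50 genes higher at day 40 lie at the lower right and the 50 lower at day 40 at the upper left, with BnaA06g30550D alone at 4.54 and -2.74; grey points among or beyond them had a day 30 change of 0.5 or more.

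The 2 groups differed in how control seeds changed with age, and the selection favours such a difference, since control of days 40 and 50 enters the changes it used. It fixes the difference between the step from day 40 to day 50 in drought and the same step in control, but not how much of it lies in either. These courses are therefore a description. In the group higher at day 40, the median scaled count in drought seeds was 109.8, 410.3 and 99.7 at days 30, 40 and 50, and in control seeds 96.9, 172 and 266. In the group lower at day 40, the medians were 151, 38.8 and 152 in drought seeds, and 149, 90.3 and 43.7 in control seeds. In both groups the drought libraries therefore turned at day 40 and at day 50 stood near their median of day 30, while the control medians went on in one direction.

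Gene by gene, drought seeds were lower at day 50 than at day 40 for 46 of the 50 genes higher at day 40, and control seeds were higher at day 50 than at day 40 for 36 of them. Both held for 32 genes, against 16.7% of eligible genes. They held for 48.8% of the 4602 eligible genes with this pattern of signs and a day 30 change under 0.5. Among the 50 genes lower at day 40, drought seeds were higher at day 50 than at day 40 for 49 and control seeds were lower for 40 of the same genes and 41 in all. The remaining gene of the 50 had scaled counts of 192 at day 40 and 182 at day 50 in drought seeds, and 377 and 74.99 in control seeds. A rise in drought with a fall in control was shown by 15.8% of eligible genes. It was shown by 44.5% of the 4884 with the second pattern of signs and a day 30 change under 0.5. Of all eligible genes, 50.1% were higher at day 50 than at day 40 in drought seeds and 50.9% in control seeds. In control seeds that share was 59.9% of the 4602 eligible genes of the first pattern of signs and 44.3% of the 4884 of the second, each with a day 30 change under 0.5. It was 86.5% of the eligible genes at least 2-fold higher in drought at day 40 and 14.6% of those at least 2-fold lower, whatever their day 50. All these steps share libraries with the changes that chose the genes.

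Drought seeds were highest at day 40 for 41 of the 50 genes higher at day 40, and lowest at day 40 for 49 of the 50 lower at day 40, against 26.4% and 27.5% of eligible genes. The drought library of day 40 was the highest of all 6 libraries for 28 genes of the first group and the lowest for 30 of the second, against 15.9% and 17.6% of eligible genes. In the first group the lowest library was drought of day 50 for 24 genes and a library of day 30 for 26 (13 drought, 13 control). In the second group the highest library was drought of day 50 for 20 genes and a library of day 30 for 29 (15 drought, 14 control). Drought of day 50 was the lowest library for 29.3% of eligible genes and the highest for 30.4%. Drought and control of day 30 were the lowest for 15.6% and 15.7% of eligible genes, and the highest for 15.9% each. Among eligible genes at least 2-fold higher at day 40, each was the lowest for 35.3%. Among those at least 2-fold lower, drought of day 30 was the highest for 38.1% and control of day 30 for 28.2%. The selection favours the positions given for the drought libraries of days 40 and 50.

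The likeness of the drought medians of days 30 and 50 did not extend to each gene. The log2 step from day 30 to day 50 in drought seeds had a median of 0.23 in the group higher at day 40, but it ran from -3.46 to 5.28, and drought seeds were higher at day 50 than at day 30 for 26 of the 50. In the group lower at day 40 that step had a median of -0.36, ran from -3.03 to 3.07, and was upward for 22 of the 50. In control seeds the same step had medians of 1.08 and -1.74, and was upward for 38 of the 50 genes higher at day 40 and for 9 of the 50 lower at day 40. Among all eligible genes, day 50 was above day 30 for 51.2% in drought seeds and 50.4% in control seeds.

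**Figure D3:**
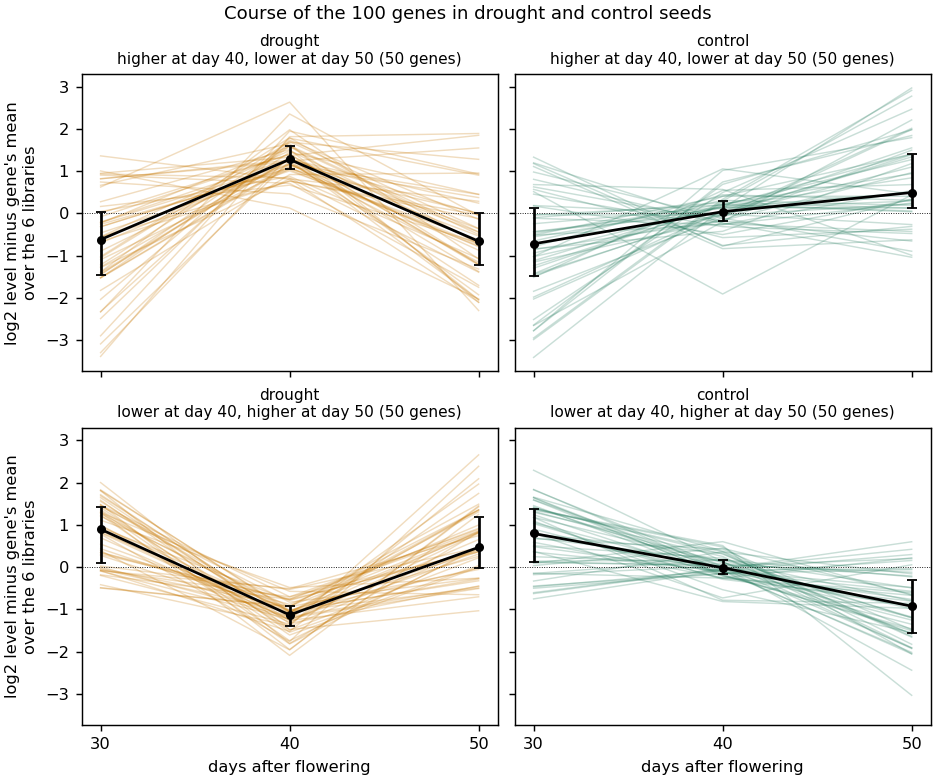
Log2 level by days after flowering for each of the 100 genes, minus the gene's mean over the 6 libraries, with drought on the left and control on the right (thin lines, 1 per gene; points, median; bars, quartiles). Of the genes in the upper panels 41 of 50 peak at day 40 in drought, and of those in the lower panels 49 of 50 have their lowest drought value there, while most control lines run in one direction.

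Within the group higher at day 40, the genes fell into classes by the course of control seeds. The largest class, of 28 genes, was higher at each later day in control, with median scaled counts of 53.6, 445 and 186 in drought seeds of days 30, 40 and 50 and 54.3, 211 and 428 in control seeds. Such a control course was shown by 27.6% of eligible genes and by 64.3% of those at least 2-fold higher at day 40. In 24 of these 28 genes drought seeds peaked at day 40, and in 4 drought seeds of day 50 were below those of day 30. A class of 7 genes was lower at each later day in control, with medians of 346, 474 and 38.8 in drought seeds and 358, 177 and 98.6 in control seeds. In this class drought seeds at day 40 were thus above, and at day 50 below, a declining control. Another 8 genes were lowest at day 40 in control, with 153, 259 and 36.7 in drought seeds and 183, 57.1 and 104 in control seeds, and BnaA06g30550D belongs to them. The last 7 were highest at day 40 in both treatments, with 65.5, 439 and 58.8 in drought seeds and 65.2, 166 and 151 in control seeds. Of eligible genes, control was lower at each later day in 26.9%, lowest at day 40 in 23.4% and highest there in 22.2%. These 3 smaller classes thus held smaller shares of the group than of the eligible genes.

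The group lower at day 40 was more uniform. In 36 of its 50 genes control seeds were lower at each later day, with median scaled counts of 189, 31.2 and 111 in drought seeds and 196, 79.5 and 27.2 in control seeds. Such a control course was shown by 26.9% of eligible genes and by 57.8% of those at least 2-fold lower at day 40. For 28 of these 36, drought seeds of day 50 were still below those of day 30, as in both named genes of the group. A class of 7 genes was higher at each later day in control, with 95.03, 54.0 and 464 in drought seeds and 97.3, 120.4 and 138 in control seeds. In these 7 the drought library of day 50 was above that of day 30 in each gene. A further 5 genes peaked at day 40 in control and 2 were lowest there. Of eligible genes, control was higher at each later day in 27.6%, highest at day 40 in 22.2% and lowest there in 23.4%. These classes were formed after the values had been seen.

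Gene length differed between the groups. The 50 genes higher at day 40 had a median length of 986 bases (243 to 2802), the 50 lower at day 40 one of 1500 bases (393 to 6047), and the eligible genes one of 1671. Of the first group 26 genes were at most 1000 bases long and 1 was over 2500, and of the second 8 and 17, against 19.2% and 23.3% of eligible genes. Eligible genes up to 700 bases had a median log2 change of 0.45 at day 40 and 0.11 at day 50, and those over 2500 bases -0.28 and 0.02. The relation was also present without regard to day 50, since the eligible genes at least 2-fold higher at day 40 had a median length of 1025 bases and those at least 2-fold lower one of 2100. The 50 genes higher at day 40 were thus about as short as other genes at least 2-fold higher on that day. The 50 lower ones had a shorter median than genes at least 2-fold lower. The 95% interval of that shorter median over the 50 genes, 1344 to 2430 bases, included 2100. Genes over 2500 bases made up 34% of these 50 and 38.0% of the genes at least 2-fold lower. With a CPM minimum of 20, the genes then chosen as lower at day 40 had a median of 2306 bases. The genes at least 2-fold lower were not taken anew at that minimum, so the order of these medians was not examined there. Whether the length relation reflects the seeds or the libraries was not tested.

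With the median trend over gene length taken out of each day's change, all 100 genes still had opposite signs at days 40 and 50. The selection left little room for another outcome, since each gene had changes of 0.886 or more in size. Median changes at day 40 were only 0.45 for eligible genes up to 700 bases and -0.28 for those over 2500. Their median change at day 40 was then 0.92 in the group higher at day 40 and -1.12 in the group lower at day 40, and at day 50 -1.18 and 1.35. Choosing the 100 genes anew from these changes kept 63 of them, 27 of the genes higher at day 40 and 36 of those lower. The 45 genes then higher at day 40 had a median length of 1533 bases and the 55 then lower one of 1350, so that the order of the groups turned. Taking out the trend removes a preference for short or long genes by construction, and these are different lists.

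**Figure D4:**
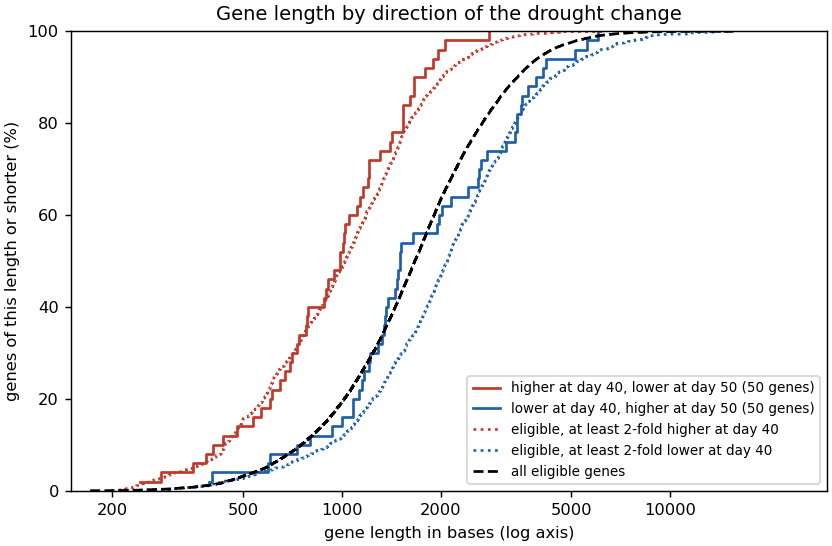
Share of genes (percent, vertical axis) of a given length or shorter (bases, log horizontal axis) for the 50 genes of each direction, for eligible genes at least 2-fold higher or lower at day 40, and for all eligible genes. The solid line of the genes higher at day 40 (median 986 bases) runs beside the dotted line of all genes 2-fold higher that day (1025), to the left of the eligible genes (1671).

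By their IDs, 36 of the 50 genes higher at day 40 came from the A subgenome and 14 from C, while of the 50 lower at day 40, 22 came from A and 28 from C. A genes made up 48.9% of the eligible genes, and 50.5% of the 4602 eligible genes with a positive change at day 40, a negative one at day 50 and a day 30 change under 0.5. The difference between the groups was not tested. After the length trend was removed, 60% of the genes then higher at day 40 were A genes. Median lengths of eligible A and C genes were 1648 and 1698 bases. The genes were spread over the genome, with at most 6 of a group on any chromosome named in the IDs (A04 in the first group, C05 in the second). Among the 96 genes with a named chromosome, 2 pairs lay within 10 ID steps of each other, 1 pair in the same direction and 1 in opposite directions.

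Depth limited the group lower at day 40 more than the other. Its median mean level was 8.91 CPM, against 15.5 CPM in the group higher at day 40 and 14.3 CPM in the eligible genes. In 26 of its 50 genes at least 1 of the 4 libraries of days 40 and 50 had fewer than 20 reads, against 5 of the 50 genes higher at day 40. The same held for 4.19% of eligible genes, 36.7% of those at least 2-fold lower at day 40 and 5.94% of those at least 2-fold higher. The drought library of day 40, the shallowest, had a median of 23 reads for these genes, with a lowest value of 1. The upper end of the counting interval of the ratio at day 40 was a median of 2.60 times the lower end in the group lower at day 40 and 1.47 times in the group higher at day 40. With no gene at 0 reads in these libraries, each ratio of days 40 and 50 is defined, but for the shallow genes its size is loosely set.

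The opposite signs were kept by all 100 genes under library totals, TMM and upper-quartile factors, rescaled FPKM and length trend removal. The balance of the directions was not. For FPKM this holds after rescaling by median of ratios. As deposited, a gene of 243 bases with a day 40 change of 1.37 stood at 1092 FPKM in drought and 1181 in control that day, the other order. Another pseudocount cannot change a sign. The other scaling factors and the length trend had little room to do so. Each chosen gene had changes of 0.886 or more in size on both days. The day 30 change passed its limit of 0.5 in 6 of the 100 genes under totals, 8 under FPKM, 7 with the length trend removed, 11 with a pseudocount of 1, and 1 each with TMM and upper-quartile factors. Dividing counts by library totals moved the median change of all eligible genes at day 40 to -0.45, against -0.01 with size factors. Under totals the genes higher at day 40 had a median change of 0.69 there and those lower -1.46. A new choice of 100 genes under totals held 9 genes higher at day 40 and 91 lower, in place of 50 and 50, so the even division depends on the scaling. Raising the CPM minimum to 20 gave 69 genes higher at day 40 and 31 lower, and shared 29 genes with the list.

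**Figure D5:**
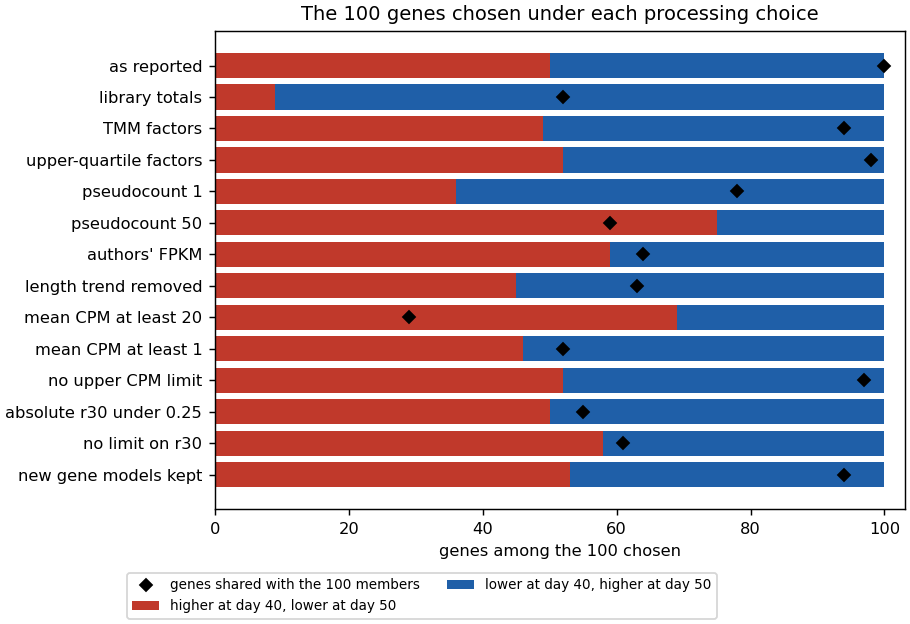
Number of genes in each direction (bars, of 100 chosen) under each processing choice, with the number shared with the 100 genes of the text (diamonds); r30 stands for the day 30 change. The shared number runs from 29 with a CPM minimum of 20 to 98 with upper-quartile factors, and the share higher at day 40 from 9 with library totals to 75 with a pseudocount of 50.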

How the data were processed

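The authors deposited raw counts per gene for 6 libraries with a length per gene, and 1 file of values per library without a unit, read here as deposited FPKM because the submitters' processing notes name Cufflinks. The sources used here do not name the aligner, counter, genome build, strand setting or handling of shared reads. Counts were divided by median-of-ratios size factors (the DESeq2 1.42.0 method), and changes are on the log2(scaled count + 10) scale, which understates changes of low genes. CPM were computed from column totals and used as the filter. TMM and upper-quartile factors came from edgeR 4.0.16. The length trend was the median over 40 equal-sized length bins, interpolated, and was taken from the changes, not from the levels. Counting intervals are exact, at 95%, and cover counting error only. No test was run, since each treatment and day had 1 library and the changes chose the genes. Members and lists were chosen with earlier results of these data known. Gene lists fixed for named genes could not be used. Named are the 2 genes per direction with the largest smaller change. Other scalings, pseudocounts, filters, list sizes and the FPKM (rescaled by median of ratios, pseudocount of 1) were tried.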

Additional observations from a re-analysis of the deposited data

Results flagged for a closer look

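The 4 named genes had drought changes of opposite direction at days 40 and 50, with 1 library per treatment and day. The difference between days was not tested, and it is what chose the genes. The log2 change of day 40 minus that of day 50 was 7.28 for BnaA06g30550D, 3.28 for BnaC08g36790D, -5.08 for BnaA07g27230D and -4.41 for BnaC06g30160D.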

How the results depend on the processing

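The changes of days 40 and 50 kept their signs in each of the 100 genes, and in the 4 named genes. This held under library totals, TMM or upper-quartile factors, rescaled FPKM and length trend removal. In the FPKM as deposited, before rescaling by median of ratios, a gene of 243 bases had the other order at day 40. A pseudocount cannot change a sign. Each chosen gene had changes of 0.886 or more in size on both days, which left scaling factors and the length trend little room to do so. All values below are of genes chosen anew under each setting. Of 138 values recomputed for the groups, 101 stayed within 1.5 times (counts) or within the 95% interval of the reported value and 37 moved. That interval is taken over the genes of a list and is not the counting interval. Genes of the same libraries are no replicates, so it covers no difference between libraries and serves only as a mark. Medians per direction could not change sign, since each list is chosen by sign. The share higher at day 40, 50% as reported, was 9% with library totals, 36% and 75% with pseudocounts of 1 and 50, and 69% with a CPM minimum of 20. Eligible genes at least 2-fold apart in opposite directions, 58 as reported, numbered 97 and 15 with pseudocounts of 1 and 50, 18 and 117 with CPM minimums of 20 and 1, 31 with a day 30 limit of 0.25 and 93 with none.

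For genes higher at day 40, the median change of day 40 (1.16) was 1.27 with totals (9 genes chosen anew, against 0.69 in the reported genes), 1.32 and 0.93 with pseudocounts of 1 and 50, 0.90 and 1.31 with CPM minimums of 20 and 1, 0.98 with the day 30 limit of 0.25, and 1.28 and 0.95 for 50 and 200 genes. Their day 50 median (-1.14) was -0.96 with a pseudocount of 50, -1.05 and -1.30 with CPM minimums of 20 and 1, and -1.29 for 50 genes. For genes lower at day 40, the day 40 median (-1.11) was -1.27 with totals (-1.46 in the reported genes), -1.35 and -0.85 with pseudocounts of 1 and 50, -0.89 and -1.30 with CPM minimums of 20 and 1, -0.98 with the limit of 0.25, and -1.29 and -0.99 for 50 and 200 genes. Their day 50 median (1.35) was 0.98 with a pseudocount of 50, 0.94 with a CPM minimum of 20 and 1.13 for 200 genes. A larger pseudocount, a higher minimum or a longer list lowers these medians by construction.

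Median length, 986 bases for genes higher at day 40, was 1533 with the length trend removed and 739.5 with no day 30 limit, and 1500 bases for those lower was 1290 with FPKM, 2306 with a CPM minimum of 20 and 1350 with the length trend removed, where the order of the groups turned. The share of genes lower at day 40 that were higher at day 50 than at day 40 in control, 18%, was 7.27% with the length trend removed. The causes of these moves were not tested. Subgenome shares and the other time courses stayed within their intervals over genes under library totals, TMM and length trend removal. No library could be left out, since each change rests on 1 pair of libraries.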
